A study of Homo sapiens with 48 samples.

Results

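Expressed genes that carry a pseudogene-style name of another gene in the table, such as RP9P for RP9 and CROCCP2 for CROCC, were described beside the parent gene of that name in 8 human cell lines with and without a small interfering RNA (siRNA) against UPF1. The members were genes whose symbol ended in P or P with digits, whose stem (as it stands, or with A or 1 added) was also a gene in the table, and for which both genes had a mean of 3 CPM or more over the 48 libraries, where CPM is a gene's count scaled to library size. They were thus chosen by measured level, averaged over siNT and siUPF1 libraries alike. Names starting with RPL, RPS, CCT6, PKD1, SMG1, HIST, EIF or EEF were left out. The rule found 198 of the 58870 genes in the table. In the GENCODE 29 annotation 46 of these were protein coding, nearly all of them ordinary genes that fit the name pattern by accident, such as UBAP1 and CHMP3, and they are counted apart. The remaining 152 are called pseudogenes here. Of these, 148 were annotated as pseudogenes, and the other 4 were RN7SKP71 and RN7SKP80 (misc_RNA), OGFRP1 (lincRNA) and GUSBP11 (processed_transcript). They had 110 distinct parents.

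All libraries came from the Flp-In 293 T-REx line, derived from human embryonic kidney and built so that a transgene enters at a fixed genomic site. Per the labels, each stable line expressed a CLIP-tagged form of UPF1: wild type (called WT), the substitutions F192E, I757R and E797R, and the mutants labelled FE-ER, IR-ER and LECY, which the labels do not spell out. The line labelled CLIP is listed with no UPF1 form. Each line was transfected with 40 nM of non-targeting siRNA (siNT) or siRNA against UPF1 (siUPF1), and RNA was taken 72 h later from 3 biological replicates per group, giving 16 groups. There was 1 line per form of UPF1, so a form and the line that carries it cannot be told apart. In these bulk samples a change in the number of cells of a kind and a change in RNA per cell cannot be told apart either.

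A pseudogene is a copy of a gene that no longer makes the parent's full protein. Processed pseudogenes arose by copying a spliced mRNA back into the genome and usually have no introns, whereas unprocessed pseudogenes arose by duplication of genomic DNA and often keep introns and are still spliced. UPF1 is an RNA helicase at the centre of nonsense-mediated mRNA decay (NMD), a pathway that removes mRNAs in which translation ends early. In mammals, a splice junction lying well downstream of the stop codon is a known mark that directs an mRNA to this pathway.

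A stop codon in the copied reading frame was found in many of these transcripts, though not in all. The stretch around the first one is shown for 4 spliced pseudogenes with large changes. Each pseudogene transcript was read in triplets, starting in the parent's frame at the first aligned parent codon. The reading went on through gaps and past the aligned stretch until a stop was met. Capitals mark the first stop codon met in the pseudogene and the bases aligned with it in the parent's coding sequence. All come from GENCODE 29 transcripts on hg38, written 5′ to 3′ on the strand of the gene.
CROCCP2, chr1:16657074-16657166, minus strand: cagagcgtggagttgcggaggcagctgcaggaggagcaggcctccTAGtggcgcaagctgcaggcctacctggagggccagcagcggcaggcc
CROCC, chr1:16929912-16930004, plus strand: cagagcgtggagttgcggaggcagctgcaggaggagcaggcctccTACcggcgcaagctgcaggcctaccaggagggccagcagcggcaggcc
WHAMMP3, chr15:22664679-22664756, plus strand: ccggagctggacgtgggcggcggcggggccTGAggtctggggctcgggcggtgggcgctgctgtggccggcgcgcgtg
WHAMM, chr15:82810054-82810131, plus strand: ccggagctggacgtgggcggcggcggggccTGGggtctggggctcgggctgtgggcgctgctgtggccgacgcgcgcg
ROCK1P1, chr18:118386-118478, plus strand: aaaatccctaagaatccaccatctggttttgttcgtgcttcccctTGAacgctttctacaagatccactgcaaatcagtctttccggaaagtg
ROCK1, chr18:20953604-20953696, minus strand: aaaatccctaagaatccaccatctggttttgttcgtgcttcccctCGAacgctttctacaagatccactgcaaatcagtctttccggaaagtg
SDHAP1, chr3:195985723-195985789, minus strand: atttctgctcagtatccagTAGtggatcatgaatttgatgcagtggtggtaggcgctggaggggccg
SDHA, chr5:224360-224426, plus strand: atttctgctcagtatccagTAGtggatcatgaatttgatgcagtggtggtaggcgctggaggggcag
In CROCCP2, WHAMMP3 and ROCK1P1 the stop codon is aligned to a sense codon of the parent. It is codon 155 of 2017 in CROCC, codon 120 of 809 in WHAMM and codon 1330 of 1354 in ROCK1. The stop in ROCK1P1 thus lies near the end of the ROCK1 frame and is not an early one. In SDHAP1 the same bases are present in SDHA but out of the reading frame there, since an earlier gap in the alignment shifts the frame of the pseudogene. The windows differ at 3, 4, 1 and 1 aligned bases.

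The stop codon was followed by splice junctions in most of the pseudogenes with the largest changes. This was common among the spliced pseudogenes in general. Of those aligned over at least 150 bases, 46 had a junction more than 50 bases past the stop and 20 had a stop without one. Read in the parent's frame, CROCCP2 met a stop after 37 codons, with 17 of its 17 junctions more than 50 bases downstream. WHAMMP3 met one after 10 codons, with 10 of 10 junctions downstream, and SDHAP1 after 57 codons, with 14 of 16. For RP9P, which aligned to 88.4% of the RP9 coding sequence at 91.6% identity, the stop came after 69 codons with 3 of 5 junctions downstream. ROCK1P1 aligned to only 13.5% of the ROCK1 coding sequence, at 99.3% identity, and its stop came after 158 codons, with 1 of 4 junctions downstream. IKBKGP1 was identical to IKBKG over the aligned 1072 bases and had no stop in the parent's frame. Whether any of these transcripts is translated, and from which codon, was not measured.

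UPF1 itself was measured first. In the CLIP line it fell from 105.5 ± 7.44 CPM with siNT to 20.4 ± 0.915 CPM with siUPF1 (SD, n = 3), a log2 change of -2.37 (edgeR adjusted p = 2.11e-17). In the 7 lines with a UPF1 transgene it lay between 3045 and 5108 CPM in every library, and in none of them did siUPF1 change it past the threshold, for example 0.15 in WT (edgeR adjusted p = 0.404). The table does not separate the transcript of the cell's own UPF1 from that of the transgene. The sum of expected counts ran from 6016999 to 14551820 per library (median 8670883), and the tests covered 16697 genes. Of 42 established NMD targets fixed as a list, 28 rose and 4 fell in CLIP, 2 rose and 4 fell in WT, and 28 rose and 4 fell in LECY. Among them TSC22D3 rose by 2.84, STC2 by 1.98, ARC by 1.88 and ZFAND2A by 1.86 on the log2 scale in CLIP. Of 18 NMD factors 9 rose and 2 fell in CLIP, beside 18.1% and 15.6% of all genes. SMG1, the kinase that phosphorylates UPF1, was up by 1.55 and UPF3B by 0.81. The falls include UPF1 itself, the target of the siRNA. None of 13 mitochondrially encoded mRNAs and none of 6 tested structural RNAs passed the test in CLIP. Of 12 epithelial and 293-line markers, which summed to 746 to 1044 CPM with siNT and 686 to 1074 with siUPF1, 3 fell in CLIP (PAX2 -1.32, INA -0.42, CDH2 -0.38). Of 3 tested fibroblast markers, summing to at most 13.2 CPM in any library, COL3A1 fell by 1.40. No blood cell marker was tested, and their summed level was at most 0.481 CPM. The part of these shifts in the results below was not tested.

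Most pseudogenes did not pass the test in the CLIP line, and 38 of the 42 that rose there had 2 or more exons. Of the 152 pseudogenes 42 rose and 11 fell in CLIP (edgeR quasi-likelihood test, Benjamini-Hochberg adjusted p under 0.05 over all genes), beside 18.1% of all genes tested that rose and 15.6% that fell. With the replicate number as a block 48 rose and 20 fell, beside 4165 and 4033 of all genes (3017 and 2605 without the block). Among the 79 with 2 or more exons 38 rose and 1 fell, a share of 48.1% rising, with a median log2 change of 0.44. Among the 73 with 1 exon 4 rose and 10 fell, with a median of -0.16. For all tested genes of the same exon classes, 20.1% of 14610 genes with 2 or more exons rose and 16.5% fell, and 3.94% of 2057 genes with 1 exon rose and 9.14% fell. Of 365 other annotated pseudogenes with 2 or more exons, 22.7% rose and 5.21% fell, and of 856 lincRNA or antisense genes with 2 or more exons 7.71% rose and 14.1% fell. The spliced members were the more highly expressed class, with a median mean level of 12.2 CPM against 5.18 CPM for those with 1 exon, and the part of level in the calls was not tested.

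**Figure D1:**
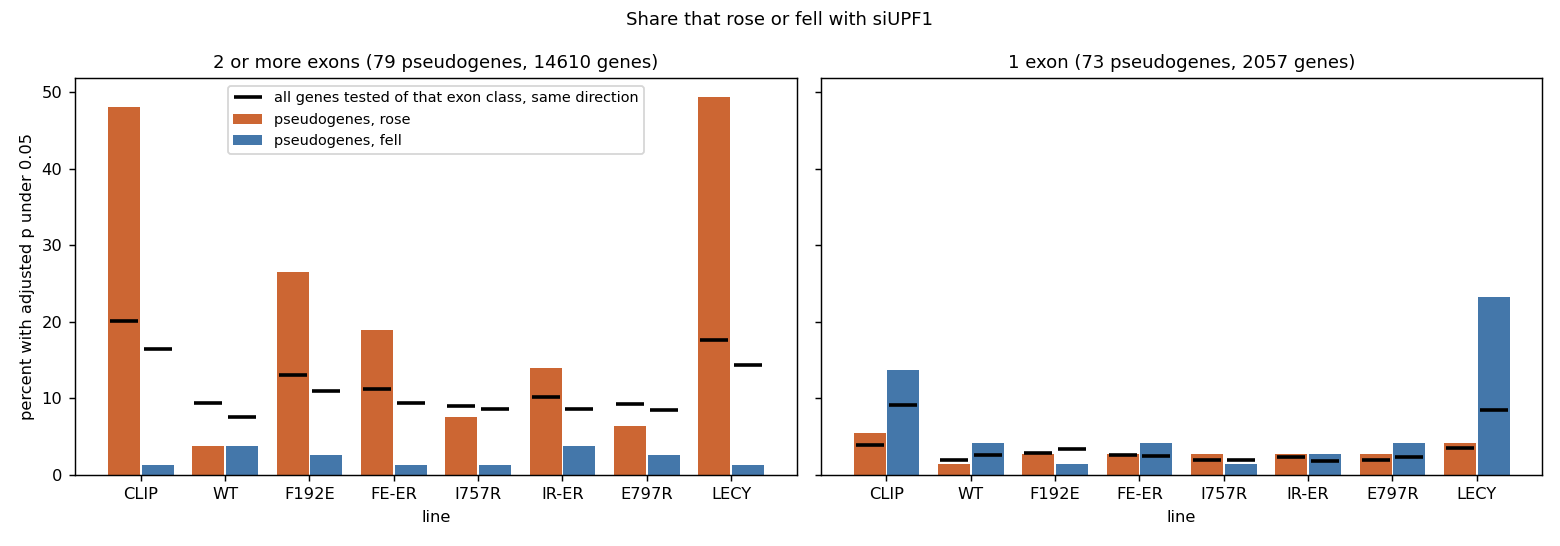
Percent of pseudogenes that rose (orange bars) or fell (blue bars) with siUPF1 in each line, at an edgeR adjusted p under 0.05, for the 79 with 2 or more exons (left) and the 73 with 1 exon (right); black marks give the same share over all tested genes of that exon class. In CLIP and LECY 48.1% and 49.4% of the spliced pseudogenes rose, and in WT 3.80%.

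Rises in the spliced class were then counted by the position of the first stop. The longest annotated transcript of each pseudogene was aligned to its parent's coding sequence, which 150 of the 152 could be, and 140 aligned over at least 150 bases, at a median identity of 96.6%. Of 46 with a stop followed by 1 or more junctions more than 50 bases downstream, 28 rose and 1 fell in CLIP, with a median log2 change of 0.70. Of 20 transcripts with 2 or more exons and a stop with no such junction, 5 rose and none fell, with a median of 0.29. Of all tested genes with 2 or more exons 20.1% rose and 16.5% fell. Of 71 transcripts with 1 exon 3 rose and 10 fell, beside 3.94% and 9.14% of all tested genes with 1 exon. A stop with downstream junctions did not always go with a rise. CROCCP3, with 11 of 14 junctions downstream, changed by -0.08 in CLIP (edgeR adjusted p = 0.86), GTF2IP1, with 20 of 23, by -0.10 (adjusted p = 0.425), and BMS1P2, with 7 of 7, by -0.34. The member that fell, DNM1P47, aligned to DNM1 over 281 bases only, and its first stop came after 377 codons, beyond that stretch. In LRRC37BP1, which is spliced and had no such junction, the stop came after 189 codons with 404 bases aligned. Among those with 1 exon, H3F3AP4 ran through all 136 codons of its parent. How many first stops lie outside the aligned stretch was not counted, so the classes are rough. A transcript with more exons has more junctions that can follow a stop, and the classes were not matched for exon number. Of the 46, CROCCP2 had 18 exons and HERC2P2 32, and of the 20, CLUHP3 had 2 and HERC2P3 16. The part of exon number in these counts was not tested. These counts are descriptions: the test of a difference between the classes was not run.

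RP9P had the largest rise. RP9, its parent, encodes a nuclear protein first studied for a role in retinal disease. RP9P (transcribed unprocessed pseudogene, 6 exons, chr7:32916815-32943176, minus strand, hg38) had 6.77, 7.15 and 6.88 CPM in the 3 CLIP libraries with siNT and 35.6, 35.2 and 40.4 CPM with siUPF1. In WT the values were 6.79, 6.12 and 7.62 CPM with siNT and 7.99, 6.55 and 8.48 CPM with siUPF1, and in LECY 6.10, 6.33 and 6.43 CPM against 32.1, 40.8 and 43.4 CPM. The siUPF1 libraries of CLIP and LECY stood far above all others, and those of WT overlapped their controls. The log2 change was 2.41 ± 0.17 (SE) in CLIP, a 5.34-fold rise of the mean (edgeR adjusted p = 3.71e-14). The parent RP9 rose by 0.83 ± 0.13 in CLIP (edgeR adjusted p = 3.49e-06), from 19.4, 19.4 and 20.8 CPM to 33.1, 35.9 and 36.9 CPM.

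SEPT7P2, ROCK1P1, CROCCP2, WHAMMP3 and WHAMMP2, whose parents act in the cytoskeleton, were among the 12 largest changes in CLIP. Others with cytoskeletal parents did not pass the test there, such as CROCCP3 (-0.08), TPM3P9 (-0.11), TUBBP1 (-0.32), TUBBP5 (0.29) and the pseudogenes of KRT8 and KRT18 (-0.31 to 0.20). SEPT7 encodes a septin, a filament protein needed in cell division. SEPT7P2 (14 exons, chr7:45723780-45768985, minus strand) had 10.9, 11.3 and 10.5 CPM with siNT in CLIP and 35.2, 52.5 and 50.5 CPM with siUPF1, a log2 change of 2.08 ± 0.14 (edgeR adjusted p = 3.18e-15). SEPT7 itself went the other way in CLIP, from 121, 131 and 118 CPM to 73.9, 92.2 and 82.8 CPM, a log2 change of -0.58 ± 0.13 (edgeR adjusted p = 0.00085). The siNT and siUPF1 libraries did not overlap for either gene. The sum of the 2 genes changed by -0.07 ± 0.22 on the log2 scale, and 2.12% of the 50-base words of SEPT7P2 occur in SEPT7. The spread of the sum is the square root of the added variances of the 2 groups of 3 libraries, taken unpaired.

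ROCK1 encodes a kinase that acts on actomyosin. ROCK1P1 (5 exons, chr18:109065-122219, plus strand) had 4.14, 3.33 and 2.22 CPM with siNT in CLIP and 13.3, 12 and 12 CPM with siUPF1, a log2 change of 1.96 ± 0.24 (edgeR adjusted p = 2.69e-08). ROCK1P1 entered the set through its siUPF1 libraries, with a mean of 4.95 CPM over all libraries and 2.98 CPM over those with siNT. ROCK1 changed by -0.15 ± 0.15 (edgeR adjusted p = 0.50), with 183 to 235 CPM with siNT and 176 to 203 CPM with siUPF1. CROCC encodes rootletin, the main protein of the ciliary rootlet. CROCCP2 (18 exons, chr1:16618253-16657232, minus strand) was by far the most abundant of these, with 62.7, 73.2 and 64.2 CPM with siNT in CLIP and 215, 216 and 236 CPM with siUPF1, a log2 change of 1.74 ± 0.11 (edgeR adjusted p = 4.1e-15). WHAMM encodes an actin nucleation factor of membrane transport. Its pseudogenes WHAMMP3 and WHAMMP2 rose by 1.37 ± 0.15 and 1.33 ± 0.19 in CLIP and WHAMM by 0.65 ± 0.13, with edgeR adjusted p of 1.72e-09, 4.64e-07 and 0.00019. WHAMMP3 (11 exons, chr15:22664359-22686213, plus strand) went from 7.80, 8.13 and 8.11 CPM to 16.8, 23.6 and 21.6 CPM.

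Pseudogenes of genes for mitochondrial proteins included MRPS31P5 and SDHAP1, named here for their large changes. MRPS31 encodes a protein of the small mitochondrial ribosomal subunit. MRPS31P5 (9 exons, chr13:52167709-52194465, minus strand) had 15.4, 11.9 and 10.7 CPM with siNT in CLIP and 35.2, 46.5 and 46.8 CPM with siUPF1, a log2 change of 1.77 ± 0.13 (edgeR adjusted p = 1.41e-13). MRPS31 had 37.6 to 41.9 CPM with siNT and 31.4 to 35.6 CPM with siUPF1 there, a log2 change of -0.22 ± 0.10 that did not pass the test (edgeR adjusted p = 0.0994). SDHA encodes the flavoprotein of succinate dehydrogenase. SDHAP1 (17 exons, chr3:195959748-195990318, minus strand) rose from 11.9, 10.0 and 9.02 CPM to 20.8, 25.8 and 29.1 CPM in CLIP, a log2 change of 1.30 ± 0.13 (edgeR adjusted p = 2.46e-10), while SDHA changed by 0.10 ± 0.09 (adjusted p = 0.411). SDHAP3 rose by 0.44 and CA5BP1 by 1.27, and of the 3 pseudogenes of HSPD1, the mitochondrial chaperonin, HSPD1P4 fell by 0.56 while HSPD1P1 and HSPD1P11 changed by -0.32 and 0.05 without passing the test.

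Other large rises in CLIP belonged to pseudogenes of genes for DNA repair, transcription, signalling and amino acid synthesis. PMS2 encodes a DNA mismatch repair protein, and PMS2P3 (9 exons, chr7:75502930-75528148, minus strand) went from 10.3, 11.3 and 10.1 CPM to 28.4, 39.5 and 46.7 CPM, a log2 change of 1.85 ± 0.14 (edgeR adjusted p = 4.03e-13). PMS2 rose by 0.56 ± 0.11 (edgeR adjusted p = 0.000107). RRN3 encodes a factor that brings RNA polymerase I to ribosomal DNA, and RRN3P3 (7 exons, chr16:22418672-22437715, minus strand) rose by 1.51 ± 0.16 (edgeR adjusted p = 5.4e-10) from 11.3, 10.2 and 7.08 CPM to 28.6, 26.7 and 25.4 CPM, while RRN3 changed by 0.15 ± 0.13. ASNS encodes asparagine synthetase, and ASNSP1 (11 exons) rose from 2.12, 1.59 and 1.69 CPM to 6.44, 7.43 and 10.1 CPM, a log2 change of 2.16 ± 0.57 (edgeR adjusted p = 0.003). It lay just above the level cut of the rule and, like ROCK1P1, only because of its siUPF1 libraries: its mean was 3.09 CPM over all libraries and 2.02 CPM over those with siNT.

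IKBKGP1, a copy of the gene for the NEMO subunit of the kinase that activates NF-kB, rose by 1.47 ± 0.31 in CLIP (edgeR adjusted p = 0.000228), from 5.35, 4.55 and 6.14 CPM to 18.4, 10.3 and 15.6 CPM. All of its 50-base words occur in IKBKG, so its expected counts rest on how reads shared by both were divided. IKBKG rose by 0.80 ± 0.15 and the sum of the 2 genes by 1.01 ± 0.27 (square root of the added variances of the 2 groups, unpaired).

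**Figure D2:**
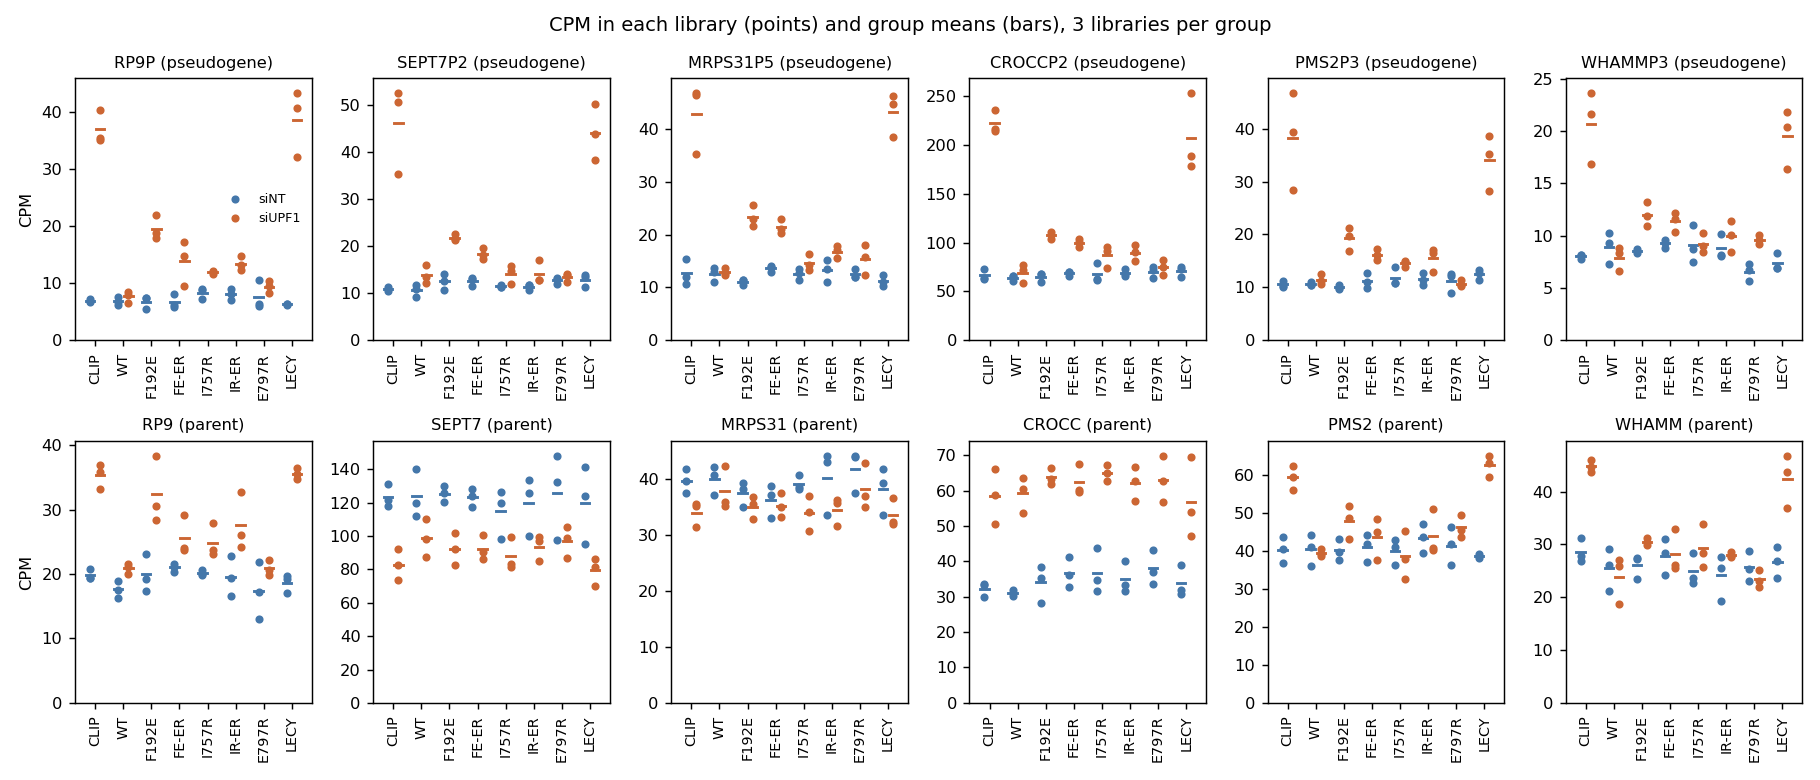
CPM of 6 pseudogenes (top row) and their parents (bottom row) in each of the 48 libraries, with siNT in blue and siUPF1 in orange; points are libraries and short bars are means of 3. In all 6 pseudogenes the siUPF1 libraries of CLIP and LECY lie above the siNT libraries, those of WT lie close to or among them, and those of F192E lie between.

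The calls of pseudogene and parent did not always match. The counts here compare calls and do not test a difference, for which the ratio to the parent was fitted, as given below. Of the 42 that rose in CLIP, the parent also rose for 22, did not pass the test for 17 and fell for 3 (SEPT7P2, SUZ12P1 and NKAPP1). SUZ12 encodes a subunit of the Polycomb repressive complex 2. SUZ12P1 had 20.9, 29.5 and 28.7 CPM with siNT and 36.4, 50.8 and 51.8 CPM with siUPF1 in CLIP, a log2 change of 0.81 (edgeR adjusted p = 5.83e-05), and SUZ12 went from 153, 178 and 140 CPM to 74.1, 91.5 and 75.7 CPM, a change of -0.96 (edgeR adjusted p = 3.96e-07). NKAPP1 rose by 0.53 and NKAP, a regulator of transcription and splicing, fell by 0.95. Of the 11 that fell, the parent fell for 8 and did not pass the test for 3. No pseudogene fell while its parent rose.

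**Figure D3:**
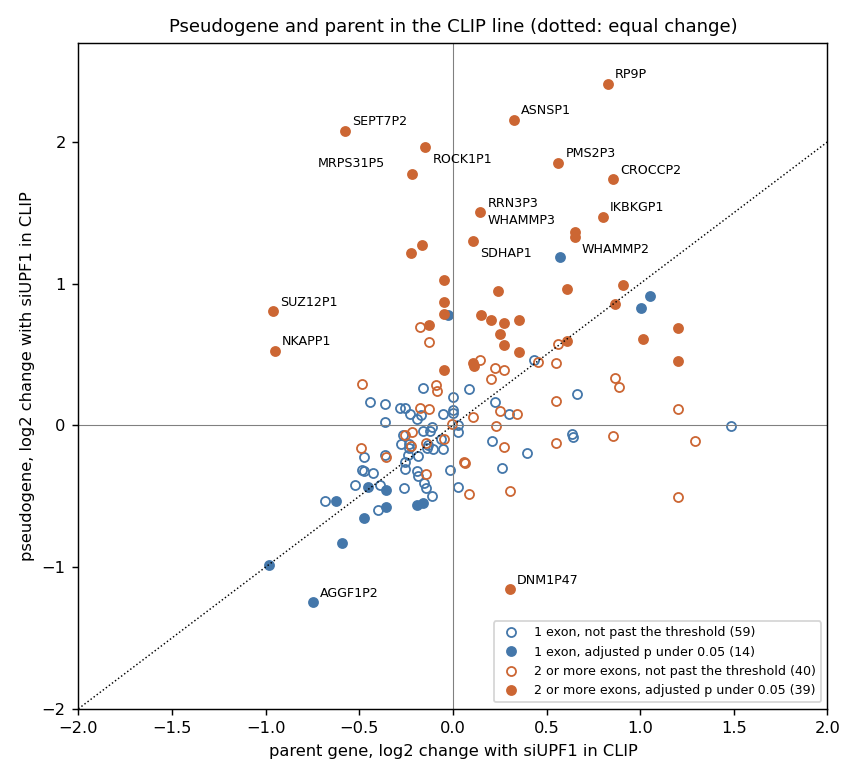
log2 change with siUPF1 in the CLIP line of each of the 152 pseudogenes (vertical axis) against its parent (horizontal axis); orange points have 2 or more exons, blue points 1 exon, and filled points passed the edgeR test for the pseudogene. The 12 largest changes and 4 others are named, and the dotted line marks equal change; SEPT7P2, SUZ12P1 and NKAPP1 lie above 0 with their parents below.

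The ratio of pseudogene to parent within each library was tested with limma over 682 named pairs of any type, as log2 CPM with 0.5 CPM added. In CLIP the ratio rose for 21 of the 152 pseudogenes and fell for 7, beside 5.87% and 3.52% of all pairs. Of the 21 that rose 20 had 2 or more exons. The largest rises were SEPT7P2 to SEPT7 by 2.59 ± 0.18 (limma adjusted p = 2.84e-14), ROCK1P1 to ROCK1 by 1.97 ± 0.28, MRPS31P5 to MRPS31 by 1.94 ± 0.18, SUZ12P1 to SUZ12 by 1.76 ± 0.24 and ASNSP1 to ASNS by 1.54 ± 0.28. SEPT7P2 stood 3.44 log2 units under SEPT7 with siNT and 0.86 under it with siUPF1. The ratio fell most for GUSBP2 to GUSB, by 1.62 ± 0.26 (limma adjusted p = 2.01e-05), TPM3P9 to TPM3, by 1.41 ± 0.14 (limma adjusted p = 9.5e-10), and DUSP8P5 to DUSP8, by 1.39. For these the parent rose and the pseudogene did not pass the test: GUSB, the lysosomal beta-glucuronidase, rose by 1.20 and TPM3, a tropomyosin, by 1.29, beside -0.50 and -0.11 for GUSBP2 and TPM3P9.

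Pseudogenes of the same parent did not always share a response. Of the 5 pseudogenes of GTF2I, which encodes a general transcription factor, GTF2IP12 rose by 1.03, GTF2IP13 by 0.87, GTF2IP20 by 0.78 and GTF2IP4 by 0.39 in CLIP, and GTF2IP1 changed by -0.10 (edgeR adjusted p = 0.425). GTF2IP1 and GTF2IP4 have 96.5% and 95.3% of their 50-base words in another gene. Of the 4 of GUSB, GUSBP11 rose by 0.69 and GUSBP1 by 0.46, while GUSBP2 and GUSBP3 changed by -0.50 and 0.12 without passing the test. CROCCP2 rose by 1.74 and CROCCP3 changed by -0.08, with 14.1, 11.5 and 14.2 CPM with siNT and 11.4, 11.1 and 15.2 CPM with siUPF1 in CLIP. PMS2P3 rose by 1.85 and PMS2P1 changed by 0.58 (edgeR adjusted p = 0.0752), and RRN3P3 rose by 1.51 and RRN3P1 changed by 0.46 (edgeR adjusted p = 0.152). None of the 4 pseudogenes of KRT8, a keratin of simple epithelia, passed the test in CLIP.

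Of the pseudogenes with 1 exon, 4 rose in CLIP: ZRSR2P1, MPRIPP1, ST13P6 and LRRFIP1P1. MPRIP, a myosin phosphatase partner, rose by 0.87 to 1.05 in all 8 lines and MPRIPP1 by 0.72 to 1.34. ST13, an HSP70 cochaperone, rose by 0.98 to 1.16 in all 8 lines, and ST13P6 rose by 0.78 to 1.52 in 7 of them and changed by 0.56 in WT (edgeR adjusted p = 0.194). The level of ST13P6 was low, 1.56, 2.82 and 2.90 CPM with siNT in CLIP against 201, 204 and 227 CPM for ST13, and 29.9% of its 50-base words occur in ST13. It too passed the rule only through its siUPF1 libraries, with a mean of 3.65 CPM over all libraries and 2.39 CPM over those with siNT. The ratio of ST13P6 to ST13 changed by -0.21 in CLIP (limma adjusted p = 0.743) and that of MPRIPP1 to MPRIP by -0.26 (limma adjusted p = 0.558). ZRSR2P1 rose by 1.19 (edgeR adjusted p = 0.0365), but its siNT libraries in CLIP ranged from 1.22 to 9.29 CPM and all its 50-base words occur in another gene. LRRFIP1P1 rose by 0.78 (edgeR adjusted p = 0.00158) with no change in LRRFIP1 past the threshold (-0.03).

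The largest falls in CLIP were smaller than the largest rises there. In CLIP AGGF1P2 fell by 1.25 (edgeR adjusted p = 0.00224), from 6.19, 5.24 and 3.83 CPM to 2.86, 1.67 and 1.90 CPM, and its parent AGGF1, an angiogenic factor, by 0.75. TTC3P1 fell by 0.99 and TTC3, a ubiquitin ligase, by 0.98. BZW1P2 fell by 0.83 and BZW1 by 0.59, NPM1P39 fell by 0.65 and NPM1, the nucleolar protein nucleophosmin, by 0.48. Of the 11 pseudogenes that fell 10 had 1 exon. The exception was DNM1P47 (4 exons), a copy of the gene for the GTPase dynamin 1, which had 7.28, 7.43 and 9.14 CPM with siNT and 4.29, 2.66 and 3.84 CPM with siUPF1 in CLIP, a log2 change of -1.16 (edgeR adjusted p = 0.0108). DNM1P47 fell in 7 lines, by 1.04 to 1.67, and changed by -0.91 in FE-ER (edgeR adjusted p = 0.0641), while DNM1 did not pass the test in any line (0.10 to 0.30). The call for DNM1P47 was lost in WT, F192E, I757R, IR-ER and E797R when a single library was left out, with edgeR adjusted p up to 0.187 (without the first WT siUPF1 library).

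Few of these transcripts changed in the line with wild-type UPF1. In WT 4 pseudogenes rose and 6 fell, beside 8.43% and 6.98% of all genes. With the replicate number as a block the counts were 9 and 15, beside 2622 and 2405 of all genes (1407 and 1165 without the block). Those that rose were MPRIPP1, RRN3P3, RNF216P1 and GTF2IP12. The median log2 change in WT of the 42 pseudogenes that rose in CLIP was 0.11, against 0.86 in CLIP, where the choice of members fixes the direction. The difference of the knockdown effects, WT minus CLIP, was tested in the same model. It was lower in WT for 22 pseudogenes and higher for none, beside 3.23% and 0.767% of all genes. With the replicate block it was lower for 32 and higher for 1, beside 1368 and 887 of all genes (540 and 128 without the block). The largest differences were RP9P -2.23 ± 0.26 (edgeR adjusted p = 1.04e-07), PMS2P3 -1.74 ± 0.21, MRPS31P5 -1.73 ± 0.20, SEPT7P2 -1.69 ± 0.20, CROCCP2 -1.63 ± 0.16 and WHAMMP3 -1.55 ± 0.22. For ASNSP1 the difference was -2.45 ± 0.91 and did not pass the test (edgeR adjusted p = 0.142).

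In LECY 42 pseudogenes rose and 18 fell, beside 15.8% and 13.6% of all genes. Of the 42 that rose in CLIP, 39 (92.9%) rose in LECY, and they were 92.9% of the rises there. Over all genes 3017 rose in CLIP and 2644 in LECY. How many of these rose in both was not counted, so the overlap is not shown to be particular to the pseudogenes. Among the spliced class 39 of 79 rose in LECY and 1 fell, and among those with 1 exon 3 of 73 rose and 17 fell. RP9P rose by 2.62 ± 0.18, ASNSP1 by 2.41 ± 0.59, ROCK1P1 by 2.11 ± 0.26, MRPS31P5 by 1.94 ± 0.14, SEPT7P2 by 1.78 ± 0.14 and CROCCP2 by 1.54 ± 0.11. SEPT7P2 had 11.2, 13.8 and 13.4 CPM with siNT in LECY and 38.3, 50.2 and 43.7 CPM with siUPF1. The effect in LECY minus that in WT was higher for 21 pseudogenes and lower for none, beside 2.76% and 0.551% of all genes. With the replicate block it was higher for 33 and lower for 2, beside 1184 and 847 of all genes (461 and 92 without the block). The difference was 2.44 ± 0.26 for RP9P (edgeR adjusted p = 3.41e-08), 1.90 ± 0.20 for MRPS31P5, 1.59 ± 0.22 for WHAMMP3, 1.43 ± 0.16 for CROCCP2, 1.42 ± 0.39 for ROCK1P1 and 1.40 ± 0.20 for SEPT7P2. That of ROCK1P1 (edgeR adjusted p = 0.0304) was lost in 8 of the fits that left out a library of WT or LECY, with adjusted p up to 0.17 (without the first WT siNT library). This difference and WT minus CLIP share the WT libraries.

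In F192E the changes of the leading pseudogenes lay between those in WT and CLIP; F192E against CLIP was not tested. In this line 23 pseudogenes rose and 3 fell, beside 11.8% and 10.1% of all genes, or 32 and 13 with the replicate block. Of all genes 3315 rose and 3142 fell with the block, against 1966 and 1680 without it. Of the 23 that rose 21 had 2 or more exons. RP9P rose by 1.52 ± 0.17, ROCK1P1 by 1.39 ± 0.25, MRPS31P5 by 1.07 ± 0.14, PMS2P3 by 0.95 ± 0.15, SEPT7P2 by 0.80 ± 0.14 and CROCCP2 by 0.73 ± 0.11. RP9P went from 6.73 ± 1.16 CPM with siNT to 19.6 ± 2.13 CPM with siUPF1 (SD, n = 3). The effect in F192E minus that in WT was higher for 2 pseudogenes, RP9P by 1.34 ± 0.26 and MRPS31P5 by 1.03 ± 0.20 (edgeR adjusted p = 0.00952 for each), beside 0.18% of all genes. With the replicate block it was higher for 6, beside 163 of all genes (30 without the block). For RP9P the adjusted p was 0.0554 without the second WT siUPF1 library and 0.053 without the third WT siNT library.

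The other 4 lines had fewer calls. In FE-ER 17 pseudogenes rose and 4 fell, beside 10.1% and 8.52% of all genes, or 26 and 13 with the replicate block, with RP9P up by 1.02, MRPS31P5 by 0.66 and PMS2P3 and SEPT7P2 by 0.55. In IR-ER 13 rose and 5 fell, beside 9.21% and 7.8%, or 24 and 12 with the block, with RP9P up by 0.74. In I757R 8 rose and 2 fell, beside 8.13% and 7.79%, or 18 and 11 with the block, with RP9P up by 0.52. In E797R 7 rose and 5 fell, beside 8.34% and 7.72%, or 11 and 14 with the block, and RP9P changed by 0.32 (edgeR adjusted p = 0.259). Of all genes, 3043 rose and 2819 fell with the block in FE-ER, and 2890 and 2510 in IR-ER. In I757R 2763 of all genes rose and 2705 fell with it, and in E797R 2687 and 2619. Without the block these counts were 1688 and 1422, 1537 and 1302, 1357 and 1300, and 1392 and 1289. The difference from WT passed the edgeR test for no pseudogene in FE-ER, I757R, IR-ER and E797R, beside 0.00599% of all genes that were higher in FE-ER and none in the other 3 lines. At an unadjusted p under 0.05 there were 13, 7, 5 and 4, and DESeq2 called 0 in each. The share of all genes at that unadjusted cut is not given, and the 4 counts are not read as differences. With the replicate block the counts of pseudogenes were 1, 0, 1 and 0. Of all genes 27, 1, 5 and 0 were then higher than in WT, and 1, 0, 0 and 0 lower. The order of the RP9P means with siUPF1 was LECY at 38.8, CLIP at 37.0, F192E at 19.6, FE-ER at 13.9, IR-ER at 13.4, I757R at 11.9, E797R at 9.39 and WT at 7.67 CPM, with SDs of 5.90, 2.88, 2.13, 4.0, 1.19, 0.263, 1.0 and 1.01. The libraries of LECY and CLIP overlapped, those of FE-ER overlapped IR-ER, I757R and E797R, and those of E797R overlapped WT. F192E overlapped none of the others.

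**Figure D4:**
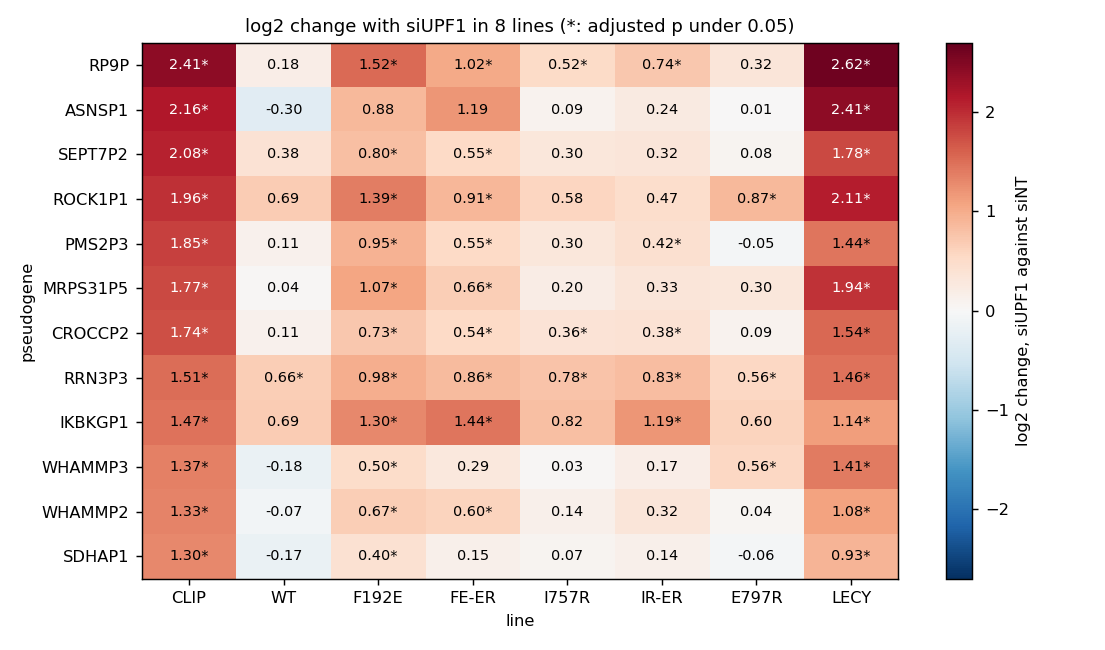
log2 change with siUPF1 of the 12 pseudogenes with the largest called change in CLIP (rows) in the 8 lines (columns), with the value in each cell and an asterisk where the edgeR adjusted p was under 0.05. In LECY all 12 carry an asterisk, in F192E 11, and in WT RRN3P3 alone.

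Across lines, 48 pseudogenes rose in at least 1 line, 25 fell in at least 1, none did both, and 79 passed the test in no line. Of all genes tested 24.8% rose in at least 1 line, 22.9% fell in at least 1, 0.479% did both and 52.9% passed in no line. MPRIPP1, RNF216P1 and RRN3P3 rose in all 8 lines, as did 3.54% of all genes. With the line fitted alone the edgeR adjusted p was 0.0698 for RRN3P3 in WT and 0.0545 for MPRIPP1 in I757R. For MPRIPP1 in I757R it was 0.0549 without the first siNT library and 0.0569 without the first siUPF1 library. RNF216P1, a spliced copy of the gene for a ubiquitin ligase, rose by 0.95 in CLIP, 0.94 in LECY, 0.97 in F192E and 0.47 in WT, while RNF216 changed by 0.24, 0.26, 0.10 and 0.11. Some parents rose to a like extent in every line where the pseudogene did not. CROCC rose by 0.73 to 0.93 in all 8 lines, so that the ratio of CROCCP2 to CROCC rose by 0.89 in CLIP (limma adjusted p = 0.00013) and fell by 0.82 in WT (limma adjusted p = 0.00187). TPM3 rose by 1.0 to 1.29 and GUSB by 0.86 to 1.20 in all 8. The ratio to the parent rose for 2 pseudogenes and fell for 10 in WT (0.733% and 2.2% of all pairs), and rose for 26 and fell for 9 in LECY (7.04% and 4.55%). In F192E it rose for 12 and fell for 7 (3.52% and 3.08%), in FE-ER for 11 and 9 (2.93% and 2.64%), in IR-ER for 8 and 10 (1.91% and 2.05%), in I757R for 6 and 6 (2.49% and 1.91%), and in E797R for 2 and 11 (0.88% and 3.37%). With each line fitted alone in limma, in place of all 16 groups together, the ratio passed the test for 0 pseudogenes in FE-ER and I757R, for 1 each in WT, IR-ER and E797R, for 13 in F192E, for 16 in LECY and for 19 in CLIP. The difference of the ratio effects, WT minus CLIP, was lower for 13 pseudogenes and higher for none (2.64% and 0.88% of pairs), and all 13 had 5 or more exons. LECY minus WT was higher for 13 and lower for none (2.49% and 0.587%).

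With siNT alone edgeR called none of the 152 pseudogenes in any of the 7 comparisons of siNT levels, WT against CLIP and each mutant against WT, beside 0.0479% of all genes in any of them. By comparison and direction the share of all genes was at most 0.018% (lower in E797R than in WT) and otherwise 0.00599% or 0. DESeq2 also called 0, and at an unadjusted p under 0.05 the counts ran from 1 to 10 of 152 per comparison. The share of all genes at that cut is not given, and these counts are not read as differences. RP9P lay between 6.29 and 8.35 CPM in the siNT means of the 8 lines, CROCCP2 between 64.1 and 71.2 CPM and MRPS31P5 between 11.1 and 13.6 CPM.

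Levels of the pseudogenes were mostly low and below the parent. The median of their mean CPM was 7.07, and EFL1P1 (3.01), KRT18P5 (3.05) and ASNSP1 (3.09) lay just inside the rule, with PA2G4P4 (2.99), CHMP4BP1 (2.95) and HNRNPH1P1 (2.93) just outside. GOLGA2P7 was the highest at 157.6 CPM, followed by HMGB1P6 at 146.4 and HERC2P2 at 94.1 CPM. Per kilobase of annotated exon, the median pseudogene stood at 19.7% of its parent, and 14 stood above it, among them HMGB1P6 at 398%, GOLGA2P7 at 313% and CROCCP2 at 309%. GOLGA2P7, a copy of the gene for a Golgi matrix protein, rose by 0.52 in CLIP and HERC2P2 by 0.57, and HMGB1P6 changed by -0.04. Because the rule used all 48 libraries, a gene could pass through its siUPF1 libraries: 145 of the 152 also had 3 CPM or more with siNT alone, and of those 39 rose and 11 fell in CLIP.

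Sequence shared between copies limits how well reads can be assigned. The median pseudogene had 13.2% of its 50-base words in its parent and 35.4% in any other gene. Of the 79 spliced pseudogenes, 52 had under 50% of their words in another gene, and 25 of these rose and 1 fell in CLIP; of the other 27, 13 rose and none fell. CLUHP3 had no 50-base word in CLUH, a regulator of mitochondrial mRNAs, and 4.17% of its counts were not whole numbers; it rose by 0.99 in CLIP (edgeR adjusted p = 1.67e-09) from 22.9, 22.5 and 21.5 CPM to 42.5, 41.0 and 49.5 CPM, by 0.81 in LECY, and changed by -0.09 in WT. Of the 152 pseudogenes 52 lay on the parent's chromosome, and 27 of these rose and none fell in CLIP. Of the 100 on another chromosome 15 rose and 11 fell, and of all genes 18.1% rose and 15.6% fell. The 52 had a median of 9 exons and 14.4 CPM, against 2 exons and 7.07 CPM over all 152. The part of location apart from exons and level was not tested.

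The 5 genes, of all tested, whose group means followed RP9P most closely over the 16 groups were NBPF12 (Pearson r = 0.99), HNRNPH3, PCNX2, C6orf48 and GPT2 (0.98 for the last). These r describe log2 CPM means that share libraries and depth.

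Of the 46 protein-coding genes that fit the name pattern, 12 rose and 9 fell in CLIP (26.1% and 19.6%, beside 18.1% and 15.6% of all genes), and 6 rose and 5 fell in WT (13.0% and 10.9%, beside 8.43% and 6.98%). NUBP1, an iron-sulfur cluster assembly factor, fell by 1.48 in CLIP, and CHMP3, an ESCRT-III subunit, rose by 0.94. HNRNPA1P48, which carries a pseudogene name but is annotated as coding, fell by 0.49.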

How the data were processed

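Expected counts per gene for the 48 libraries (paired-end, rRNA-depleted total RNA) were made and deposited by the authors. The submitters' processing notes name cutadapt, STAR, RSEM, DESeq2 and hg38, with no role or version. RSEM divides reads that fit several genes among them, and 9.157% of all values were not whole. The expected counts were rounded, genes were filtered with filterByExpr (minimum count 10), and all 16 groups were fitted together in edgeR 4.0.16 (quasi-likelihood, TMM, robust) in R 4.3.3, with Benjamini-Hochberg adjustment over 16697 genes. CPM are expected counts over TMM-scaled library sizes. Ratios to the parent were fitted with limma 3.58.1. Scripts were tested on simulated data. Gene models, exons and sequences came from GENCODE 29 on hg38. The count of exons is the largest in any annotated transcript.

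The members and gene lists (NMD factors, established NMD targets, mitochondrially encoded mRNAs, structural RNAs, and epithelial, fibroblast and blood markers) were chosen with earlier results of these data known. The rule used the mean level over all libraries, so levels are descriptions. Full statistics were given for the 12 largest called changes in CLIP, the 2 largest called rises and falls in each other line, the 6 largest called ratio changes in CLIP, up to 6 called per difference between lines, the 3 highest and the 3 on each side of the level limit, and their parents; others are named by value. From each list up to 4 called genes were named (1 is not reported here), and 5 genes by likeness to RP9P. Libraries paired by number: in 24 of 24 pairs of siNT and siUPF1 libraries with the same number in a line, deviations from the group means correlated above 0.1 (r 0.115 to 0.469), a pairing that comes from the replicate numbers in the labels. Replicates of a group differed beyond counting noise (chi-square per degree of freedom 3.59 to 16.5). Alternatives were DESeq2 1.42.0, its size factors in edgeR, no filter, the replicate block, fits of the line alone, another pseudocount (2 CPM) and leaving out each library.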

Additional observations from a re-analysis of the deposited data

Results flagged for a closer look

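Differences of the knockdown effect between lines passed the edgeR test for these pseudogenes, and are given as log2 differences. WT minus CLIP was -2.23 for RP9P, -1.74 for PMS2P3, -1.73 for MRPS31P5, -1.69 for SEPT7P2, -1.63 for CROCCP2 and -1.55 for WHAMMP3. F192E minus WT was 1.34 for RP9P and 1.03 for MRPS31P5. LECY minus WT was 2.44 for RP9P, 1.90 for MRPS31P5, 1.59 for WHAMMP3, 1.43 for CROCCP2, 1.42 for ROCK1P1 and 1.40 for SEPT7P2. All 3 differences use the WT libraries. Each line is a single line, so the UPF1 form and the line cannot be told apart.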

How the results depend on the processing

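No result changed direction under any alternative. With the replicate block the number of pseudogenes called with siUPF1 was 24 (WT), 45 (F192E), 39 (FE-ER), 29 (I757R), 36 (IR-ER) and 25 (E797R), and of differences from WT 6 (F192E), 1 (FE-ER), 1 (IR-ER) and 35 (LECY). For these counts, calls over all genes also became more numerous with the block, as given above. In the other comparisons the block moved no count of pseudogenes or of ratio pairs by over 1.5 times. Fitting a line alone gave 2 pseudogenes in WT, 4 in I757R and 7 in E797R, and ratio pairs numbering 16 for LECY, 1 for WT, 1 for E797R, 0 for I757R, 0 for FE-ER and 1 for IR-ER. At a limit of 10 CPM there were 63 pseudogenes. Leaving out 1 library at a time gave 44 to 51 pseudogenes for CLIP, 45 to 54 for LECY, 5 to 12 for WT, 8 to 9 for E797R, 21 to 24 for F192E, 5 to 12 for I757R, 16 to 21 for FE-ER and 10 to 15 for IR-ER. For the differences it gave 16 to 22 for WT minus CLIP, 1 to 3 for F192E minus WT and 16 to 20 for LECY minus WT. For ratio pairs it gave 24 to 30 for CLIP, 25 to 31 for LECY, 7 to 13 for WT, 6 to 13 for E797R, 13 to 19 for F192E, 5 to 12 for I757R, 12 to 18 for FE-ER, 10 to 13 for IR-ER, 9 to 16 for WT minus CLIP and 9 to 18 for LECY minus WT. Counts of pseudogenes moved by over 1.5 times without the first WT siUPF1 library (5), WT siNT library 2 (6) or 3 (5), the first I757R siNT library (5), IR-ER siNT library 2 (11) or IR-ER siUPF1 library 3 (10). For F192E minus WT 1 was left without WT siUPF1 library 2 or WT siNT library 3. Counts of ratio pairs moved so without the first WT siUPF1 (7), second FE-ER siNT (12), first I757R siNT (5), second I757R siUPF1 (7), first IR-ER siUPF1 (10) or second E797R siNT library (6). The cause was not tested. The median level of the pseudogenes was 7.07 CPM, with 3 libraries a group, which limits the precision of each change.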
